A study of Mus musculus with 48 samples.

Results

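The comparison described here is that of male Tph2-/- mice and their Tph2+/+ littermates after maternal separation (MS), in the amygdala, with 8 mice of each genotype out of 48 mice in the series. Members were the genes of the deposited table of 48440 genes whose mean over these 16 libraries was at least 10 counts, without Lars2 and Gm42418, which left 5702 genes. The mean count was 10 in the 21 genes just inside this limit and 9.94 in the 18 genes just outside it. All mice were males aged 4 months of the strain C57BL/6 in the labels, given as C57BL/6N in the methods of the study, carried their Tph2 alleles in every cell from conception, and had been through a battery of behavioral tests before the tissue was taken, the controls included. In the MS groups, pups were kept apart from their mother for 3 h a day from postnatal day 2 to 15. Tph2-/- C and Tph2+/+ C mice, reared without separation, Tph2+/- MS mice and Tph2+/- C mice, 8 each, are used for comparison. Which mice shared a litter is not given in the labels, so that litter and group cannot be told apart here.

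Tph2 encodes tryptophan hydroxylase 2, the enzyme that sets the pace of serotonin (5-HT) synthesis in neurons. It is made in the cell bodies of the raphe nuclei in the brainstem, whereas the amygdala, a forebrain region for the processing of threat and social signals, receives their fibers and carries 5-HT receptors. Without the enzyme the brain makes almost no 5-HT, while the raphe neurons themselves are formed.

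The counts of the 16 libraries without Lars2 and Gm42418 ranged from 583055 to 840702, and between 95.1% and 97.6% of the uniquely placed read pairs lay on no gene. A level is given below as a count scaled to the library size with TMM factors (CPM), on which 3 counts make 3.71 to 5.41 CPM, a floor that covers counting error alone. Genes abundant in brain had few counts on their own rows of the table and many on the row of a gene on the opposite strand. Aldoa, for a glycolytic enzyme, had a mean of 11.2 counts and Fam57b, opposite to it, had 4026. For each gene the partner is therefore named whose exons overlap with it on the other strand, and whether reads of the partner were counted on a gene cannot be told from the table. A value on a gene's own row may thus not be that of its own transcripts. Of the 11 markers of amygdala inhibitory neurons, none had a mean of 10 counts on its own row and Dlk1 had none at all, so that the tissue could not be checked with them. Tph2 itself (chromosome 10, 115078641 to 115185022, minus strand of GRCm38) had no count in 14 of the 16 libraries and 1 count in each of the other two, replicates 3 and 5 of Tph2-/- MS, which does not check the genotypes. The 8 Tph2+/+ MS libraries had from 152 to 565653 counts on Gm42418, the highest in replicate 2, against 126 to 931 in Tph2-/- MS. None of the 5 library measures that were tested differed between the genotypes by a two-sided exact permutation test (adjusted p from 0.933 to 0.968). Replicate 7 of Tph2+/+ MS and replicates 2 and 4 of Tph2-/- MS stood apart together on a first component that held 25.9% of the variance within the groups, and without these 3 libraries 91 genes were called in the test described next, of which 54 were shared with the full set and none had an adjusted p below 0.05.

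After MS, 121 of the 5702 genes differed between Tph2-/- and Tph2+/+ mice in edgeR's quasi-likelihood test, with the limits set at 0.01 for the nominal p and at 0.2 for the size of the lg2FC. These differentially expressed genes (DEGs) were 2.12% of the genes, where 57 genes would pass the limit on p if no gene differed. In Tph2-/- mice 50 of them were higher (0.877% of all genes) and 71 were lower (1.25%). With Benjamini-Hochberg adjustment 1 gene passed at 0.05 (0.0175%), and without adjustment 433 genes passed at 0.05 (7.59%). The adjusted p of the other 120 DEGs lay between 0.39 and 0.468, so that each of them was called by its nominal p alone. The median lg2FC of the DEGs was 0.51 for those higher and -0.59 for those lower, beside -0.01 over all genes. No gene separated the groups completely, since in all 5702 genes the CPM of the 8 Tph2-/- MS mice overlapped with those of the 8 Tph2+/+ MS mice. Exons on the opposite strand were found for 88 of the 119 DEGs in the annotation (73.9%) and for 64% of all genes tested that are in it. Leaving out 1 library at a time left between 64 DEGs, without replicate 6 of Tph2-/- MS, and 167, without replicate 3 of Tph2+/+ MS, and 74 without replicate 8 of Tph2+/+ MS.

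**Figure D1:**
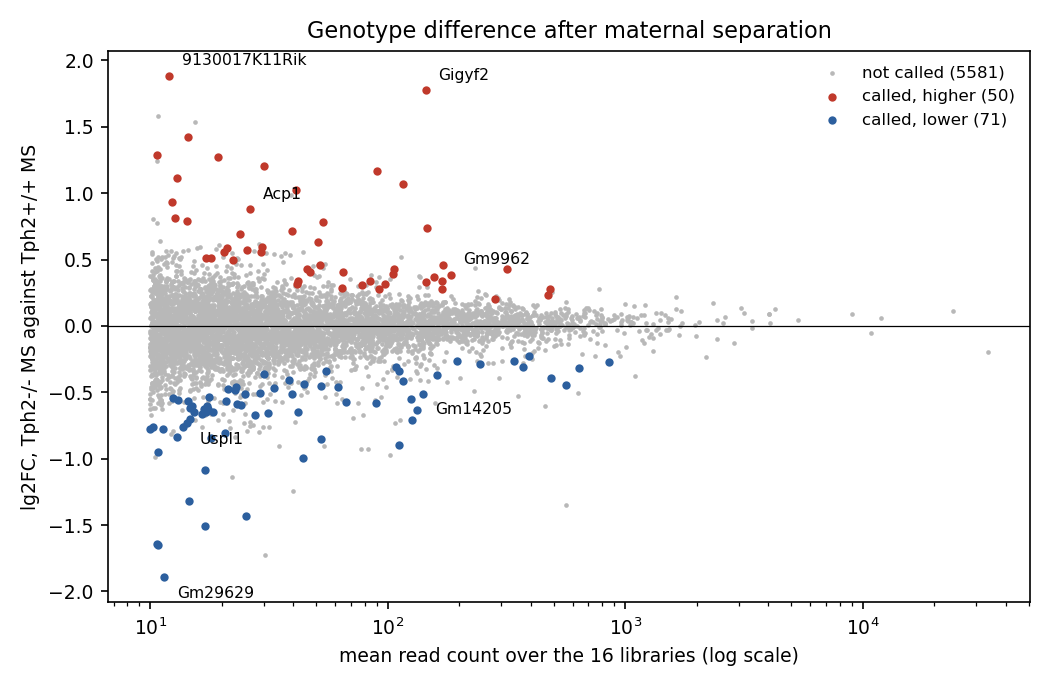
Difference between Tph2-/- MS and Tph2+/+ MS (lg2FC, vertical axis) against the mean read count over the 16 libraries (horizontal axis, log scale) for 5702 genes. Each point is a gene, with the 50 DEGs higher in Tph2-/- in red and the 71 lower in blue; the median of the mean counts was 49.0 for the higher and 25.1 for the lower DEGs, beside 32.5 for all genes.

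The gene that passed the adjustment was Acp1 (chromosome 12, 30893326 to 30911589, minus strand), for a small tyrosine phosphatase. It shares 529 exonic bases with Alkal2, which encodes a ligand of the ALK receptor and lies on the other strand. The Acp1 level had a lowest value of 16, a median of 29.8 and a highest value of 37.4 CPM in Tph2+/+ MS. In Tph2-/- MS it was 21.7, 52.4 and 73.8 CPM. All Tph2-/- MS mice but replicate 5 were above the highest Tph2+/+ MS mouse. The lg2FC was 0.88 ± 0.17 (SE, adjusted p = 0.0147), or 1.84-fold. The row of Alkal2 had an lg2FC of 0.05 ± 0.18, which need not be the change of Alkal2 transcripts. Tph2+/- MS mice lay between the homozygotes by their median, with a level of 37.9 CPM and all values from 29.6 to 46.1 CPM. Without replicates 4, 5 and 6 of Tph2-/- MS the lg2FC was 1.06, and without replicates 7 and 8 of Tph2+/+ MS it was 0.87. In the latter case it did not pass the adjustment, nor did any gene without replicate 2, 3 or 8 of Tph2+/+ MS or replicate 8 of Tph2-/- MS alone, without replicate 7 of Tph2+/+ MS and replicates 2 and 4 of Tph2-/- MS together, or in a fit of only these groups.

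**Figure D2:**
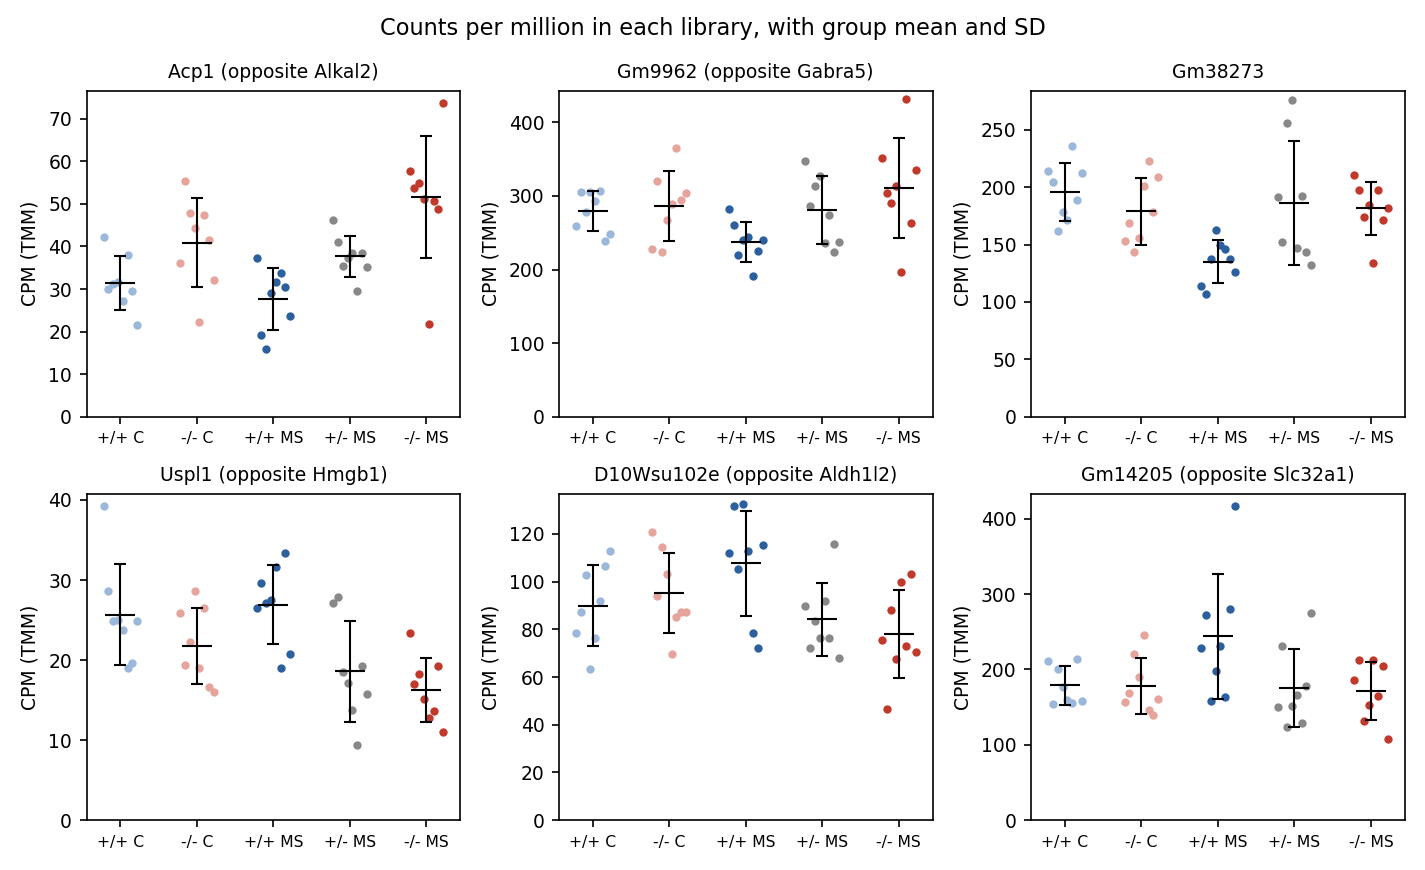
CPM in each mouse for 6 DEGs in 5 groups of 8 mice, with the group mean (bar) and SD (whiskers); axes start at 0. In Tph2-/- MS the levels of Acp1, Gm9962 and Gm38273 were higher and those of Uspl1, D10Wsu102e and Gm14205 lower, and in each panel the points of these groups overlap.

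Among the genes of GABA and glutamate signaling, 2 of the 10 rows opposite to them were DEGs and none of the 11 rows of the genes themselves, where 2.12% of all genes tested were. With so few rows nothing is read from this share. The median lg2FC was 0.00 for the opposite rows and -0.03 for the own rows. One DEG was Gm9962 (chromosome 7, 57387272 to 57409941), an antisense gene that overlaps with 148 exonic bases of Gabra5, for the alpha 5 subunit of the GABA-A receptor. Gm9962 had 191, 240 and 282 CPM (lowest, median, highest) in Tph2+/+ MS and 197, 309 and 431 CPM in Tph2-/- MS. In 6 of the 8 Tph2-/- MS mice it was above the highest Tph2+/+ MS value, while replicate 5 was close to the lowest. The lg2FC was 0.39 ± 0.12. On the row of Gabra5, which had a mean of 10.5 counts, the lg2FC had the other sign, -0.62 ± 0.27, and did not pass.

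The other one was Gm14205 (chromosome 2, 158610910 to 158611820), which overlaps with 697 exonic bases of Slc32a1. This gene encodes the transporter that fills synaptic vesicles with GABA and is also the 1 marker of amygdala inhibitory neurons with a counted row opposite to it. The Gm14205 level was 158, 230 and 417 CPM in Tph2+/+ MS and 108, 175 and 212 CPM in Tph2-/- MS, with the 417 CPM in replicate 8 alone. The lg2FC was -0.51 ± 0.16. Without replicates 7 and 8 of Tph2+/+ MS it was -0.28 ± 0.16 and did not pass. In bulk tissue, fewer cells of a type and less RNA per cell cannot be told apart.

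Other rows that were higher in Tph2-/- MS also have a partner on the opposite strand. Gm15651 lies opposite to Dgkg, for a diacylglycerol kinase, and rose from a median of 374 to 555 CPM (lg2FC 0.43 ± 0.12). Its spread was wider in Tph2-/- MS (348 to 748 CPM) than in Tph2+/+ MS (351 to 478 CPM), and 5 Tph2-/- MS mice were above all Tph2+/+ MS mice. It did not pass without replicates 4, 5 and 6 of Tph2-/- MS (lg2FC 0.34 ± 0.13). Gm14285, opposite to Adra1d, for an alpha-1 adrenergic receptor, had 2.77, 13.5 and 18.1 CPM in Tph2+/+ MS and 12.6, 18.6 and 53.1 CPM in Tph2-/- MS, an lg2FC of 1.12 ± 0.33. Replicates 4 and 6 of Tph2-/- MS were the highest, and without replicates 4, 5 and 6 the lg2FC was 0.61 ± 0.37 and did not pass. Gm26560, opposite to Drd5, for the D5 dopamine receptor, had an lg2FC of 0.79 ± 0.26 and was picked after its values had been seen. Gm26560 did not pass without replicates 4, 5 and 6 of Tph2-/- MS (0.73 ± 0.29), or without replicate 2 or 6 of Tph2-/- MS or replicate 7 of Tph2+/+ MS alone. Gm14285 and Gm26560 had means of 12.9 and 14.3 counts, near the limit of 10.

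More DEGs with higher levels in Tph2-/- MS had no partner or one of another function. A930001C03Rik overlaps with Syt12, of the synaptotagmin family, and Rhod, and rose from a median of 198 to 246 CPM (lg2FC 0.37 ± 0.10). Gm42604, opposite to Fras1, for an extracellular matrix protein, had an lg2FC of 0.56 ± 0.15. Gm37435, opposite to the sodium/proton exchanger gene Slc9a4, had 1.27 ± 0.36. Their ranges overlapped in the 2 groups, at 25.8 to 54.1 CPM against 39.7 to 73.8 CPM for Gm42604 and 5.55 to 26.4 CPM against 12.6 to 70.4 CPM for Gm37435. The intergenic RNA 4930526F13Rik had an lg2FC of 0.93 ± 0.26 and the unconfirmed transcript Gm38273 one of 0.43 ± 0.12. Gm38273 was above the highest Tph2+/+ MS value of 163 CPM in all Tph2-/- MS mice but replicate 5, which had 134 CPM. Without replicates 4, 5 and 6 of Tph2-/- MS, A930001C03Rik (0.28 ± 0.11), Gm37435 (0.94 ± 0.41) and 4930526F13Rik (0.56 ± 0.29) did not pass. The 5S rRNA copy n-R5s188 had an lg2FC of 0.58 ± 0.17, a value that is uncertain since 5S genes are near-identical copies. Without replicate 7 of Tph2+/+ MS and replicates 2 and 4 of Tph2-/- MS together, n-R5s188 had 0.49 ± 0.19 and did not pass.

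A group of the higher DEGs was led by the same 3 mice, replicates 4, 5 and 6 of Tph2-/- MS. These were the 3 highest mice of their group in 14 of the 50 higher DEGs (28%) and in 129 of all 5702 genes (2.26%). The genes opposite to the 14 rows were Usp43 with Cfap52, Car14, Rarres2, Ace, Slc7a10, Fam84b, Slc4a2, Tbcel, Slc24a5, Cfap65, Gas6, Kcnj13, Serhl and Tuba8, which were not tested for a shared function. Of these, Kcnj13, for a potassium channel, is on the list of markers of the choroid plexus, the epithelium of the brain ventricles that secretes cerebrospinal fluid, and Rarres2 on that of the ependyma.

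Gigyf2 (chromosome 1, 87326998 to 87450796), for a regulator of translation, holds 623 exonic bases opposite to Kcnj13. Its level was 29.1, 69.9 and 291 CPM in Tph2+/+ MS, with replicate 3 the highest, and 41.0, 141 and 891 CPM in Tph2-/- MS. Replicates 4, 5 and 6 of Tph2-/- MS had 440, 610 and 891 CPM and the other 5 mice from 41.0 to 143 CPM, inside the range of Tph2+/+ MS. The lg2FC was 1.77 ± 0.62 with all mice and 0.17 ± 0.69 without these 3, and did not pass then. The call of Gigyf2 was lost in 13 of 29 other settings and sets of libraries. Kcnj13 on its own row had -0.16 ± 0.15.

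The same mice led 9130017K11Rik, which lies opposite to Usp43 and Cfap52, with 60.7, 46.0 and 56.9 CPM in replicates 4, 5 and 6 and at most 16 CPM in Tph2+/+ MS. Its lg2FC was 1.88 ± 0.48, and 0.27 ± 0.55 without them. Aph1a, Lrrc61, Fastk and Gm11651 did not pass without these mice either. Aph1a, for a subunit of gamma-secretase, overlaps with 445 exonic bases of Car14 and went from 1.21 ± 0.33 to 0.29 ± 0.36. Lrrc61 overlaps with 892 exonic bases of Rarres2, for the chemokine-like protein chemerin, and went from 0.79 ± 0.22 to 0.29 ± 0.24. Fastk (opposite Slc4a2) and Gm11651 (opposite Ace), which were picked after their values had been seen, went from 1.17 ± 0.39 to -0.13 ± 0.40 and from 1.07 ± 0.33 to -0.08 ± 0.31. The rows of Slc4a2 and Car14 themselves had an lg2FC of 0.04 ± 0.13 and -0.06 ± 0.13.

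**Figure D3:**
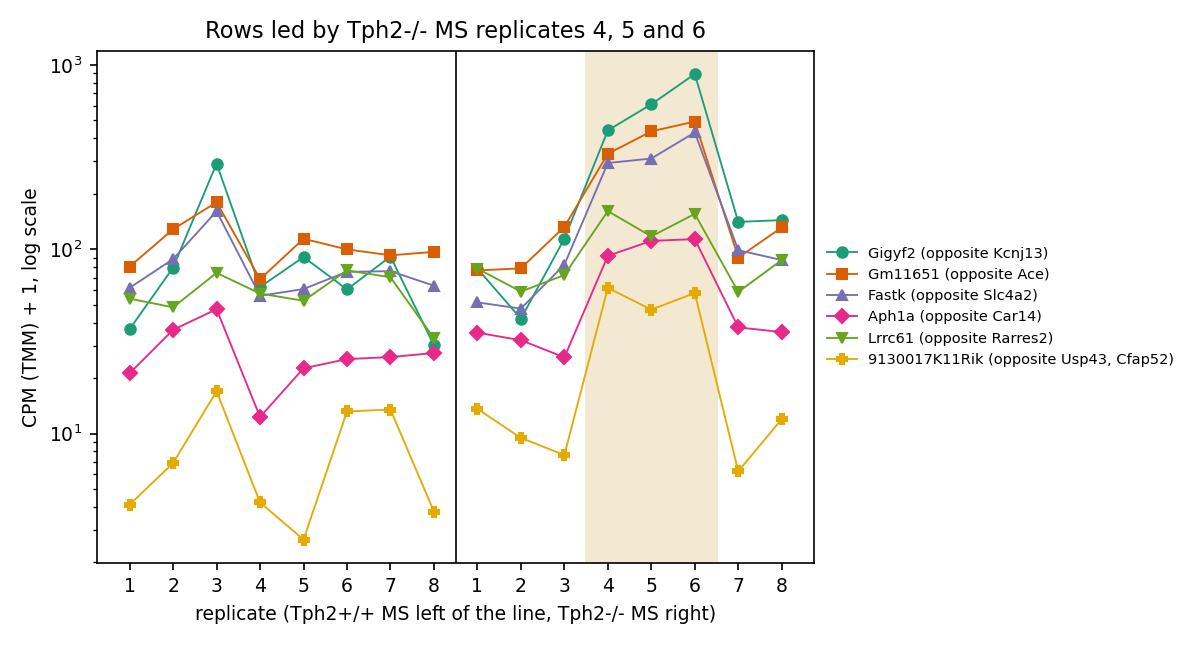
CPM plus 1 (vertical axis, log scale) of 6 DEGs higher in Tph2-/- MS, in each of the 8 Tph2+/+ MS mice (left) and 8 Tph2-/- MS mice (right). The shaded replicates 4, 5 and 6 of Tph2-/- MS stand above the rest in all 6 rows, while the other 5 mice lie mostly within the range of Tph2+/+ MS; lines join the values of a gene and carry no order.

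Of the 11 choroid plexus markers, 10 had a mean below 10 counts on their own rows, and Folr1 and Aqp1 were at 0 in all 16 libraries. Their own rows summed to between 93.1 and 180 CPM in Tph2+/+ MS and between 100 and 183 CPM in Tph2-/- MS. The 2 rows opposite to the list summed to between 29.1 and 291 CPM in Tph2+/+ MS and between 41.0 and 891 CPM in Tph2-/- MS. Ttr, for transthyretin, a main product of the choroid plexus, had 9, 10 and 6 counts in replicates 4, 5 and 6 of Tph2-/- MS and at most 3 counts in each of the other 13 libraries, and was picked after its values had been seen. The 2 markers of the list with more counts had their highest count in other mice. Kcnj13 had 64, 98 and 105 counts in these 3, 59 to 95 in the other Tph2-/- MS mice and 57 to 116 in Tph2+/+ MS. Calml4 had 10, 8 and 3 counts in these 3, 1 to 11 in the other Tph2-/- MS mice and 4 to 10 in Tph2+/+ MS. Of the 7 ependymal markers, 6 had a mean below 10 counts, with Tmem212 at 0 throughout, and their own rows summed to between 87.2 and 117 CPM in Tph2+/+ MS and between 90.1 and 157 CPM in Tph2-/- MS. The 1 row opposite to them, Lrrc61, ranged from 31.9 to 75.8 CPM and from 57.6 to 160 CPM. Whether choroid plexus or ependyma in the dissected tissue has a part in these differences was not tested. Without the 3 mice there were 70 DEGs, 25 higher and 45 lower, of which 36 were shared with the full set, and Acp1 still passed the adjustment.

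Lower levels in Tph2-/- MS were found in 71 genes, none of which passed the adjustment. The smallest nominal p was that of Uspl1 (chromosome 5, 149184350 to 149215434), for an enzyme that cleaves SUMO, which overlaps with 42 exonic bases of Hmgb1, for a chromatin protein. Uspl1 had 18.9, 27.3 and 33.3 CPM in Tph2+/+ MS and 11, 16.1 and 23.4 CPM in Tph2-/- MS. In 6 of the 8 Tph2-/- MS mice it was below the lowest Tph2+/+ MS mouse, with an lg2FC of -0.73 ± 0.18. It passed the limit for a DEG in each of the 29 other settings and sets of libraries in which it was fitted. Of the gene ENSMUSG00000085435, which is not in the annotation used, 7 of 8 Tph2-/- MS values were below all Tph2+/+ MS values, with an lg2FC of -0.84 ± 0.22.

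D10Wsu102e (chromosome 10, 83360221 to 83488505) overlaps with 1056 exonic bases of Aldh1l2, for a mitochondrial enzyme of folate metabolism. It fell from a median of 113 CPM (range 72.3 to 132) to 74.3 CPM (46.6 to 103), with an lg2FC of -0.46 ± 0.14. Both Tph2+/+ MS mice below 100 CPM, replicates 6 and 7, lay within the range of Tph2-/- MS. The row of Aldh1l2 itself had an lg2FC of 0.07 ± 0.15. Zfp704, a zinc finger gene opposite to C030034L19Rik, had an lg2FC of -0.65 ± 0.20, while C030034L19Rik, with a mean of 423 counts, had -0.02 ± 0.06. Without replicate 7 of Tph2+/+ MS and replicates 2 and 4 of Tph2-/- MS together, Zfp704 had -0.54 ± 0.21 and did not pass.

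Of the other lower DEGs with the smallest p, Gm17194, Gm11892 and the X-linked Gm14597 had no partner. Gm17194 and Gm11892 are processed pseudogenes, whose counts are uncertain where reads of their parent gene could be placed on them. Gm14597 was the most abundant of them, at a median of 539 CPM in Tph2+/+ MS and 453 CPM in Tph2-/- MS (lg2FC -0.27 ± 0.08). Gm17194 had -0.63 ± 0.18 and Gm11892 had -0.76 ± 0.23. Gm10762, opposite to the zinc finger gene Zc3h6, had -1.09 ± 0.32 with a wide range in Tph2+/+ MS, from 6.39 CPM in replicate 3 to 57.0 CPM in replicate 7, and did not pass without replicates 7 and 8 (-0.79 ± 0.35). Gm14597 did not pass without replicates 4, 5 and 6 of Tph2-/- MS (-0.21 ± 0.10). Apex2, for a DNA repair endonuclease, lies opposite to Pfkfb1 and to Alas2, the first enzyme of heme synthesis in red cells, and had -0.70 ± 0.26, a call that was lost in 13 of 29 other settings and sets of libraries. The 4 hemoglobin genes of the red blood cell list had no count in any of the 16 libraries, and Alas2 itself had a mean of 329 counts and an lg2FC of -0.12 ± 0.13. The red blood cell rows opposite to the list summed to between 11.8 and 54.9 CPM in Tph2+/+ MS and between 10.5 and 22.6 CPM in Tph2-/- MS, and their part was not tested.

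Replicates 7 and 8 of Tph2+/+ MS were the highest of their group in 29 of the 71 lower DEGs (40.8%) and in 608 of all genes (10.7%). Among the named genes these were Ptpn9, for a tyrosine phosphatase and opposite to Gm10658, Appbp2os, opposite to Appbp2, Tpbgl, opposite to Gm10605, and Gm14205. Ptpn9 had an lg2FC of -0.95 ± 0.29 with all mice and -0.61 ± 0.30 without replicates 7 and 8. Appbp2os went from -0.57 ± 0.17 to -0.34 ± 0.17, and Tpbgl from -0.81 ± 0.25 to -0.43 ± 0.25. Without these 2 mice none of the 4 genes passed, though the sign stayed negative.

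The largest differences of this kind lay in rows picked after their values had been seen. Gm29629, opposite to the kinase gene Cdk18, had 66.7 and 81.8 CPM in replicates 7 and 8 of Tph2+/+ MS and at most 13.5 CPM in the other 6 mice of that group, against 0 to 21.7 CPM in Tph2-/- MS. Its lg2FC was -1.89 ± 0.61 and -0.46 ± 0.66 without the 2 mice. Fars2, which overlaps with 501 exonic bases of Nrn1, for a neurite growth factor, and Lyrm4, went from -1.32 ± 0.45 to -0.58 ± 0.48. Gm43137 (opposite Ankle2), Gm9887 (opposite Arf6, for a small GTPase of membrane traffic) and Gm43474 (opposite Slc15a4, for a peptide transporter) lost the call as well. Over all other settings and sets of libraries, the call was lost in 15 of 29 for Gm43137, in 17 of 28 for Gm9887 and in 5 of 28 for Gm43474. Basp1, for a protein of growing axons and synapses, has no gene opposite to its exons and had 76.6, 176 and 454 CPM in Tph2+/+ MS and 48.7, 114 and 179 CPM in Tph2-/- MS, with an lg2FC of -0.90 ± 0.29 that was -0.44 ± 0.29 without the 2 mice. Gm15444 and Gm20628 lie opposite to histone genes of the Hist2 cluster, which has near-identical copies, so that their lg2FC of -0.85 ± 0.27 and -0.32 ± 0.11 are uncertain. Without the 2 mice they were -0.33 ± 0.26 and -0.18 ± 0.11 and did not pass. Without replicates 7 and 8 of Tph2+/+ MS there were 82 DEGs, 43 higher and 39 lower, of which 57 were shared with the full set, and no gene passed the adjustment.

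**Figure D4:**
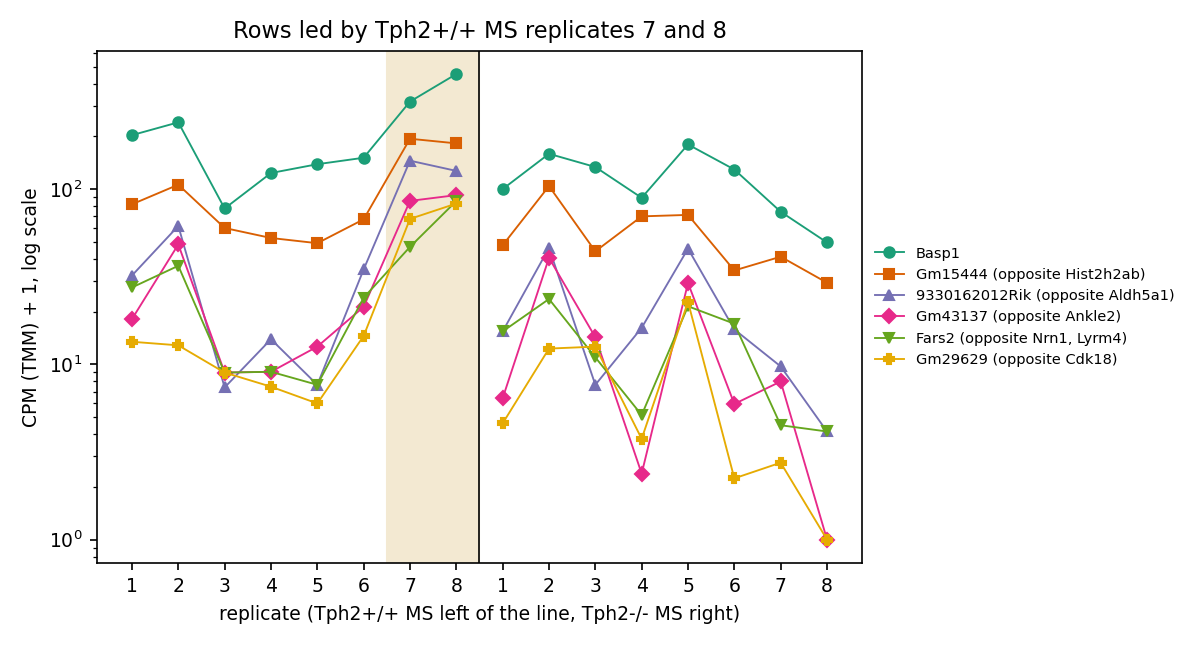
CPM plus 1 (vertical axis, log scale) of 6 DEGs lower in Tph2-/- MS, in each of the 8 Tph2+/+ MS mice (left) and 8 Tph2-/- MS mice (right). The shaded replicates 7 and 8 of Tph2+/+ MS have the highest values in all 6 rows, and the other 6 mice of that group overlap with Tph2-/- MS; lines join the values of a gene and carry no order.

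Genes of the 5-HT system were mostly below the limit of 10 counts, and none of those above it was a DEG. Of the 22 genes on the list, 3 were tested on their own rows and 1 on an opposite row. Htr1b, for a receptor that sits on the endings of 5-HT and other fibers, had 45.2, 67.1 and 84.7 CPM in Tph2+/+ MS and 34.5, 49.0 and 78.5 CPM in Tph2-/- MS, an lg2FC of -0.28 ± 0.14 that did not pass. D430036J16Rik, opposite to Htr1b, had -0.19 ± 0.15. The vesicular monoamine transporter gene Slc18a2, opposite to Gm29261, had -0.03 ± 0.17 and the receptor gene Htr2b, opposite to Psmd1, 0.02 ± 0.09. The row of Htr2b had a mean of 112 counts and that of Psmd1 1.81, and whose reads these are cannot be told. Most receptors, the 5-HT transporter and the enzymes of 5-HT breakdown had too few counts on their own rows for a test.

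Neuropeptide genes were not tested on their own rows, all 22 of which had means below 10 counts. Cck, for cholecystokinin, had 1 to 5 counts in Tph2+/+ MS and 0 to 3 counts in Tph2-/- MS, too few for a test. A830012C17Rik, opposite to the enkephalin gene Penk, had 206, 257 and 533 CPM in Tph2+/+ MS and 82.8, 174 and 461 CPM in Tph2-/- MS, with an lg2FC of -0.58 ± 0.26 that did not pass. Although 6 Tph2-/- MS mice were below all Tph2+/+ MS mice, the 461 CPM of replicate 7 were above all but 1 of them. Parpbp, opposite to Pmch, for melanin-concentrating hormone of the hypothalamus, had 1.24 ± 1.06 and did not pass, with 85.5 CPM in replicate 4 of Tph2-/- MS.

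None of the other lists held a DEG on a row of its own or opposite to it. For genes of stress hormone signaling the median lg2FC was 0.17 over 1 own row and 0.23 over 1 opposite row, for immediate early genes 0.04 over 1 and 0.06 over 2, and for synaptic vesicle genes 0.16 over 5 and 0.06 over 6. DNA methylation genes had 2 opposite rows with a median of 0.03. The 9 tested genes of the mitochondrial genome had a median of 0.09. Their smallest p was that of mt-Co1, of cytochrome oxidase and opposite to mt-Ts1 (lg2FC 0.28 ± 0.12). Of 4 forebrain transcription factors, Dlx1, of inhibitory neuron development and opposite to Dlx1as, came closest with 0.24 ± 0.09. Imprinted genes had medians of 0.00 over 12 own rows and 0.01 over 20 opposite rows. The list of abundant brain genes had medians of 0.09 over 9 own rows and 0.09 over 3 opposite rows. No DEG was found on the rows of markers of oligodendrocytes, astrocytes, microglia, endothelium, striatum, hypothalamus or thalamus or opposite to them, and no marker of cortex and hippocampus was tested. Within 10 Mb of Tph2 on chromosome 10, none of 21 tested genes was a DEG and none had a nominal p below 0.05 (smallest 0.0559), with lg2FC from -0.28 to 0.26. On the whole chromosome 4 of 215 genes were DEGs (1.86%), close to the 2.12% of all genes.

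Under control rearing, where the mice are different ones, 36 genes were DEGs between Tph2-/- C and Tph2+/+ C (0.631%), 25 of them higher (0.438%) and 11 lower (0.193%). A fit of only these groups gave 44 higher and 7 lower, and DESeq2 6 lower. Without adjustment 190 genes passed at 0.05 (3.33%), and 1 gene passed the adjustment. Replicate 1 of Tph2+/+ C had 72.6% of its gene counts on Gm42418 and 419364 counts without Lars2 and Gm42418. Replicate 1 of Tph2-/- C had 49.7% on Gm42418, and replicate 2 of Tph2+/- C had 73.3%. No control library was left out of the comparisons below. Those called after MS and under control rearing with the same sign were Cep162 and Nhsl1. Cep162, for a protein of the centriole, had an lg2FC of -0.65 ± 0.20 after MS and -0.65 ± 0.19 under control rearing. Its levels were 20.8, 32.3 and 43.1 CPM in Tph2+/+ MS, 12.6, 18.3 and 31.4 CPM in Tph2-/- MS, 27.2, 37.4 and 44.3 CPM in Tph2+/+ C and 12.4, 23.0 and 34.2 CPM in Tph2-/- C. The ranges overlapped in both rearings, and after MS Cep162 did not pass without replicates 4, 5 and 6 of Tph2-/- MS (-0.58 ± 0.24). Nhsl1, on chromosome 10 but far from Tph2, had 0.46 ± 0.14 and 0.41 ± 0.15, and after MS it did not pass without these 3 mice either (0.44 ± 0.17), or without replicate 8 of Tph2-/- MS alone.

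The direction was the same under control rearing in 40 of the 50 higher DEGs (80%) and in 53 of the 71 lower DEGs (74.6%), beside 55.1% of all genes. The sizes were smaller, with a median lg2FC under control rearing of 0.14 for the higher and -0.07 for the lower DEGs, and the value was nearer to 0 than after MS in 120 of the 121 DEGs. Smaller values are partly given by the choice of the genes on the MS groups. Acp1 had 0.40 ± 0.17 under control rearing, Gm9962 had 0.04 ± 0.12 and Gm14205 had 0.00 ± 0.17. Gigyf2, Aph1a and 9130017K11Rik had 0.67 ± 0.58, 0.55 ± 0.33 and 0.61 ± 0.47. The lowest, median and highest CPM of Gigyf2 under control rearing were 15.4, 173 and 481 in Tph2+/+ mice and 54.0, 247 and 1110 in Tph2-/- mice. Heterozygous mice had 27.8, 230 and 551 CPM after MS and 71.0, 252 and 470 CPM after control rearing. All 4 medians of Gigyf2 lay above those of Tph2-/- MS (141 CPM) and Tph2+/+ MS (69.9 CPM). The same order held for Aph1a, with medians of 42.1, 43.9, 54.9 and 54.1 CPM in these 4 groups, 35.6 CPM in Tph2-/- MS and 24.7 CPM in Tph2+/+ MS. It also held for 9130017K11Rik, with medians of 12.7, 20.8, 18.2 and 18.8 CPM against 11.8 CPM in Tph2-/- MS and 4.58 CPM in Tph2+/+ MS. Tph2+/+ MS thus had the lowest median of the 6 groups for each of the 3 genes.

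**Figure D5:**
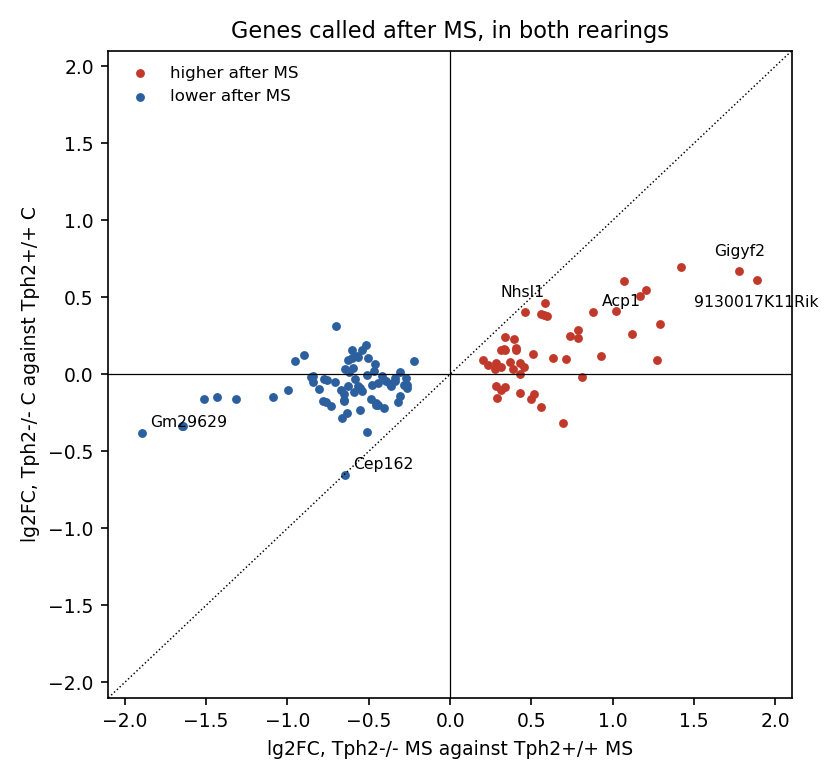
lg2FC of Tph2-/- against Tph2+/+ after MS (horizontal axis) and under control rearing (vertical axis) for the 121 DEGs found after MS, red where higher and blue where lower in Tph2-/- MS. All but 1 point lie nearer to 0 on the vertical axis than on the horizontal one; the dotted line marks equal values, on which Cep162 lies.

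The difference between the rearings was tested as well, and 31 genes passed the same limits (0.544%), 14 with a higher (0.246%) and 17 with a lower (0.298%) difference after MS. These counts were 15 and 11 with the replicate number as a block, and 14 and 32 without replicates 4, 5 and 6 of Tph2-/- MS. None passed the adjustment in edgeR or in DESeq2 (0%), and 201 genes passed at 0.05 without adjustment in edgeR (3.53%). Among the 121 DEGs after MS, 9 passed this test too. The DEGs were chosen on the MS groups, which enter the difference, so that passing is partly given by the choice. Gm13268, a processed pseudogene and uncertain for that reason, had the smallest p, with an lg2FC of 0.69 ± 0.21 after MS, -0.32 ± 0.21 under control rearing and a difference of 1.01 ± 0.30. Gm38273 differed by 0.55 ± 0.17 and Gm13179, opposite to Frmd4a, by 0.44 ± 0.15. Gm13268 (0.52 ± 0.24), Gm13179 (0.27 ± 0.12) and Gm13716 (-0.44 ± 0.18) were not called after MS without replicates 4, 5 and 6 of Tph2-/- MS, and Gm13179 lost its call in 15 of 29 other settings and sets of libraries. Gm13716 was also not called without replicate 3 of Tph2+/+ MS or replicate 6 of Tph2-/- MS alone. The others that were higher after MS were Hsd3b6, a gene of steroid synthesis, and F2rl2, a receptor for thrombin. On the lower side these were Gm13716 (opposite Lrrc55), Appbp2os, ENSMUSG00000085435 and D10Wsu102e, with differences from -0.83 to -0.53.

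Among the 6 groups, it was Tph2+/+ MS that most often had the extreme mean log2 level. It had the lowest mean in 45 of the 50 higher DEGs, whereas Tph2-/- MS had the highest in 35 of them. In the lower DEGs Tph2+/+ MS was highest in 61 of 71 and Tph2-/- MS lowest in 44. Gm38273 shows this pattern, with medians of 137 CPM in Tph2+/+ MS, 183 CPM in Tph2-/- MS, 197 CPM in Tph2+/+ C and 174 CPM in Tph2-/- C. The DEGs were chosen on these groups, so that extreme means are partly given by the choice.

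Tph2+/- MS mice, which the comparison did not use, lay between the homozygotes in 44 of the 50 higher and 61 of the 71 lower DEGs by their mean log2 level. They were nearer to Tph2-/- MS than to Tph2+/+ MS in 38 of the higher and 53 of the lower DEGs. The same held for Tph2-/- C in 44 and 52 and for Tph2+/+ C in 29 and 40 DEGs, while Tph2+/- C mice were nearer to Tph2-/- MS in 37 of the higher but 24 of the lower DEGs. Since the DEGs were chosen for a distance between the MS homozygotes, a group between them is partly given by the choice. In Uspl1 the medians were 27.3 CPM in Tph2+/+ MS, 17.8 CPM in Tph2+/- MS and 16.1 CPM in Tph2-/- MS. In Gm14205 they were 230, 158 and 175 CPM, and in Gm9962 they were 240, 281 and 309 CPM. No test was made of the Tph2+/- mice.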

How the data were processed

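Amygdala RNA of 48 mice, 8 in each of 6 groups, was measured by stranded total RNA sequencing. The authors deposited raw read counts per Ensembl gene without normalization; STAR, HTSeq, DESeq2 and GRCm38.p5 are named in the submitters' processing notes, while the annotation and strand setting of the counting are not given in the sources used here. All columns were matched to a mouse. The 5 rows for pairs counted on no gene (95.1% to 97.6% of unique pairs on no feature) and Lars2 and Gm42418 were left out. Genes with a mean of at least 10 counts in the 16 MS libraries were fitted with edgeR 4.0.16 in R 4.3.3 (TMM, 1 coefficient per group over 48 libraries, quasi-likelihood test, Benjamini-Hochberg adjustment); errors of an lg2FC are SE. DEGs passed the study's limits, p below 0.01 and absolute lg2FC above 0.2. DESeq2 1.42.0 was an alternative. On simulated data for this comparison, with 5702 genes, 64 of 100 genes changed by 0.5 and 97 of 100 changed by 1 on the log2 scale were called, and 52 of 5502 unchanged ones. Library measures were compared by exact permutation of 8 against 8 mice (Python 3.11.15, SciPy 1.17.1). Places and opposite exons come from GENCODE M21 (GRCm38), without 22 of the tested genes. Components were computed on log2(CPM + 2). Named were the 12 DEGs of smallest p in each direction, DEGs of or opposite to listed genes, DEGs within 10 Mb of Tph2, and Tph2, Cck, Lars2 and Gm42418. Members and lists were chosen with earlier results of these data known. The labels give separate mice but not their litters, and no libraries were duplicates. The p-values of the main fit thus measure the spread between mice, taken over all 6 groups and not over the 2 compared groups alone. Same-numbered mice of the 2 groups did not deviate together (correlations from -0.38 to 0.06), so the numbers do not pair them.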

Additional observations from a re-analysis of the deposited data

Results flagged for a closer look

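Single libraries stood far from the other 7 of their group in 9 of 66 sets of 8 values that were looked at, where about 1 in 20 is flagged by chance. The highest Tph2-/- MS value was 46.9 CPM for 4930526F13Rik (median 20.8). The highest Tph2+/+ MS values were 46.8 CPM for n-R5s188 (median 28.2), 83.2 CPM for Tpbgl (median 36.1), 291 CPM for Gigyf2 (median 69.9) and 417 CPM for Gm14205 (median 230). Replicate 2 of Tph2+/+ MS had 95.1% of its unique pairs on no gene, 15.2% of its gene counts on Lars2 and 37.4% on Gm42418, against medians of 97.5%, 3.85% and 0.0304%. In Tph2-/- MS the highest share on Gm42418 was 0.121% (median 0.0371%).

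The genotype difference was not the same in the rearings by the test of the difference for 4 named genes, none after adjustment. It was larger after MS by an lg2FC of 0.55 ± 0.17 for Gm38273. It was more negative after MS by -0.83 ± 0.31 for ENSMUSG00000085435, by -0.53 ± 0.20 for D10Wsu102e and by -0.69 ± 0.25 for Appbp2os. These genes were named for a small p after MS, which enters the difference, so that its size is partly given by the choice.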

How the results depend on the processing

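The count of 121 DEGs was between 83 and 137 with the size factors of DESeq2 put into edgeR, in DESeq2 itself (105 with no prior, 115 with one), with filterByExpr, a mean over 48 libraries, Lars2 and Gm42418 kept, only these groups fitted, robust edgeR, and a replicate block (110). No filter on low counts gave 553 DEGs of 32233 genes, 99 of them after adjustment. Without 1 library the count was 64 to 167 and 0 or 1 gene passed the adjustment; it was 0 without replicates 2, 3 or 8 of Tph2+/+ MS or replicate 8 of Tph2-/- MS. It was also 0 with only these groups fitted, without replicates 7 and 8 of Tph2+/+ MS and without replicate 7 of Tph2+/+ MS and replicates 2 and 4 of Tph2-/- MS. These 2 sets and that without replicates 4, 5 and 6 of Tph2-/- MS (70 DEGs) were chosen after seeing the data. Of 49 called genes with values in the text or beside it, 9 were DEGs in every setting that held them, and Fastk (-0.13) and Gm11651 (-0.0756) changed sign, both without replicates 4, 5 and 6. The cause was not tested.

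Under control rearing, 307 genes passed with no filter, 20 after adjustment; the 1 gene after adjustment, CT010467.1, opposite Gm42418, was lost (0) in DESeq2, robust edgeR, the replicate block and the fit of only these groups. The difference between the rearings gave 334 genes with no filter, 14 after adjustment. The replicate block changed the lower calls of this difference from 17 to 11 and no other count of calls, in either direction, by over 1.5 times.

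Tph2-/- MS minus Tph2+/+ MS in mean counts was 1561, and between -18242 and 18565 without 1 library. The difference in medians was -0.000201 for the percent on no gene, 0.00988 for Lars2 and 0.00666 for Gm42418, and the difference in means without 1 library was 0.00732 to 0.363, -1.61 to 0.0772 and -5.32 to 0.0143.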
